A study of Mus musculus with 33 samples.

Results

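The synaptic vesicle and synapse genes are a list of 36 mouse genes that was taken by gene symbol from the 47729 genes of the count tables, with no threshold on a measured value, although the list was set with earlier results of these data known. All 36 were found, and all 36 passed the filter on low counts together with 18150 genes in all. By role they comprise 9 genes of the fusion machinery and its calcium sensors, 9 genes of the vesicle membrane, synapsins and glutamate transporters, 5 genes of the active zone, 3 adhesion genes, 5 genes of postsynaptic scaffolds and 5 glutamate receptor subunits.

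At a chemical synapse, vesicles filled with transmitter dock at the active zone of the presynaptic terminal. A synaptobrevin on the vesicle pairs there with syntaxin and SNAP-25 on the plasma membrane, and synaptotagmins start fusion when calcium enters. Released glutamate acts on AMPA and NMDA receptors that scaffold proteins hold opposite the terminal. In the retina, photoreceptors and bipolar cells release glutamate at ribbon synapses, ganglion cells carry VGLUT2 (Slc17a6), photoreceptors load vesicles through VGLUT1 (Slc17a7), and most amacrine cells release GABA or glycine.

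Bulk RNA-seq libraries came from retinal progenitor cells (RPC), the dividing precursors of retinal neurons and Muller glia, of C57BL/6J mouse retina at embryonic day 14. No allele or transgene is named for any group, and all groups share this strain, tissue and cell type. Of 33 libraries, 3 were untreated at day 0. The cone culture has 3 libraries that were cone primed at day 0 and 3 at each of days 5, 12, 21 and 35 of cone induction, all labelled with COCO protein, which blocks BMP, Wnt and TGF-beta ligands outside the cell. The rod culture has 3 that were rod primed at day 0 and 3 at each of days 5, 12, 21 and 35 of rod induction, all labelled with taurine and retinoic acid. The labels do not say whether replicates were separate cultures or animals, so p-values may measure only technical spread between these samples. They name no batch, and no untreated libraries of later days were analysed here, so time in culture and the inducing factors cannot be told apart in a comparison of days.

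The libraries held between 7511837 and 19166442 counts in genes, which puts a floor of 3 counts at 0.174 to 0.407 CPM for counting error only. Levels are given as CPM, counts scaled to a common library size after TMM, and a gene is called at an adjusted p under 0.05 (edgeR quasi-likelihood test with Benjamini-Hochberg adjustment over all genes tested). Shares of all genes tested come from this test fitted to all libraries, called the main fit. None was computed for any other fit. The cells labelled as progenitors held neuronal transcripts at day 0: 14 pan-neuronal markers summed to 2038 to 2545 CPM and 12 photoreceptor markers to 899 to 1217 CPM in untreated cells, beside 1289 to 1574 CPM for 9 progenitor markers. By day 35 the photoreceptor sum was 12.7 to 46.96 CPM in the cone culture and 11.5 to 18.4 CPM in the rod culture, with the cone opsin Opn1sw at 0 counts in all 3 cone libraries. A count of 0 allows up to 0.258 CPM in a cone day 35 library. In bulk RNA, fewer cells of a type and less RNA per cell cannot be told apart.

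Some libraries stood apart from their group. In the rod culture at day 12, replicate 2 was the highest of 3 in 29 of the 36 genes and replicate 1 the lowest in 30, and the genes stood at a median of 61.6%, 151% and 92.2% of the rod primed mean in replicates 1, 2 and 3. The photoreceptor sum of these libraries was 80.6, 1535 and 173 CPM and the pan-neuronal sum 405, 821 and 523 CPM. In the cone culture, replicate 2 was the highest in 29 genes at day 12, in 31 at day 21 and in 28 at day 35, and replicate 3 of day 12 was the lowest in 33, replicate 1 of day 21 in 33 and replicate 1 of day 35 in 27. The labels do not say whether a replicate number links libraries of different groups, and the tests treated them as unpaired. Leaving out one of the libraries that stood apart changed the calls of several comparisons. Many of these changes, but not every call gained or lost, are given with the comparison.

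Synapse genes were compared between each day of induction and the primed cells of the same culture, which asks how far they changed while the cells were held under cone or rod conditions. All comparisons within a culture share the primed libraries. In the cone culture the 36 genes stood at a median of 99.5% of their primed mean at day 5. That median was 54.2% at day 12, 37.5% at day 21 and finally 27.6%. In single libraries (replicates 1, 2 and 3) the median was 54.7, 75.4 and 28.7% at day 12 and 21.1, 51.8 and 36.8% at day 21. It was 15.1, 36.3 and 28.2% at day 35, so libraries of successive days overlapped from day 12 on. At day 5, 2 were called higher and 1 lower, while 12.2% of all genes tested were called higher and 10.2% lower. At day 12, 0 were called higher and 19 lower, while 26.7% of all genes tested were called higher and 21.7% lower. At day 21 the counts were 2 higher and 26 lower (29.4% and 23.2% of all genes tested), and at day 35 they were 1 higher and 31 lower (31.1% and 26.5% of all genes tested). Limma on the deposited TPM values called far fewer, 5 at day 35 in each culture. The median log2 fold change of the 36 genes was -1.85 at day 35, against 0.026 over all genes tested.

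The largest called rise at cone day 5 was of Slc17a7, the vesicular glutamate transporter VGLUT1. Its level was 9.82, 8.57 and 18.4 CPM in the primed libraries and 65.3, 105 and 48.8 CPM at day 5, with no overlap of the groups (log2 fold change 2.57 ± 0.80, adjusted p = 0.021). This call was lost without primed replicate 1, primed replicate 2 or day 5 replicate 2, and the count at day 5 was 1 without either of the latter. Vamp1, which encodes synaptobrevin 1, was called higher at the same day (0.92 ± 0.18, adjusted p = 5.32e-04) and again at day 21 (0.89 ± 0.18, adjusted p = 1.40e-04). Nlgn1, a postsynaptic adhesion gene, fell by 0.53 on the log2 scale at day 5 (adjusted p = 0.0264), a call lost without primed replicate 2 or without day 5 replicate 1 or 2. The photoreceptor marker sum stood at 1549 to 2130.0 CPM at cone day 5 against 730.5 to 1202 CPM in primed cells. Its part in these results was not tested. With only the libraries compared in the fit, 5 genes were called higher and 6 lower at day 5.

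At cone day 12 the largest falls were of Cplx2, a complexin that binds the assembled fusion complex (-2.67 ± 0.30, adjusted p = 4.16e-08), and of Snap25 (-2.49 ± 0.58, adjusted p = 8.66e-04). All 5 active zone genes were called lower at this day, as were 7 of 9 genes of the fusion machinery and 4 of 9 of the vesicle group, beside 21.7% of all genes tested. Of the active zone calls, that of Pclo was lost in 5 of the 6 fits that left out 1 library, all but that without day 12 replicate 2, and that of Rims2 without day 12 replicate 1 or 3. Without day 12 replicate 3, the lowest in 33 genes, the calls of Vamp2, Cplx1, Slc17a6, Rims2, Pclo and Gria4 were lost, that of Nlgn1 was gained and 14 genes were called. Without replicate 2 those of Sv2a, Sv2b, Shank2 and Gria2 were gained and 23 were called. At day 21 the largest falls were of Slc17a6, which loads glutamate in ganglion cells (-3.50 ± 0.79, adjusted p = 5.25e-04), and of Snap25 (-3.13 ± 0.60, adjusted p = 8.08e-05), and the second rise was of Nlgn3, a neuroligin (0.48 ± 0.20, adjusted p = 0.0455), a call lost without primed replicate 1, primed replicate 2 or day 21 replicate 2. Without day 21 replicate 1, the lowest in 33 genes, the calls of Vamp2, Sv2a, Sv2b, Nrxn3, Gria4 and Grin1 were lost and 22 genes were called. From day 12 to day 35, 0 genes rose and 15 fell, while 12.4% of all genes tested were called higher and 9.39% lower. Its largest falls were of Slc17a6 (-3.13 ± 1.01, adjusted p = 0.028) and Slc17a7 (-2.48 ± 0.86, adjusted p = 0.0402). The Slc17a6 call was lost without day 12 replicate 1, day 12 replicate 2, day 35 replicate 2 or day 35 replicate 3. That of Slc17a7 was lost without day 12 replicate 2 or without any 1 of the day 35 replicates, and its log2 fold change ran from -2.93 to -0.88 over the 6 fits. The count rests on single libraries: 3 of the 15 calls were left without day 12 replicate 2, 4 without day 35 replicate 1 and 7 without day 35 replicate 3. It rose to 18 without day 12 replicate 3, with Cplx1, Syn1 and Gphn gained. Without day 35 replicate 2 the calls of Snap25, Syt4, Cplx1 and Syn1 were gained. With only the libraries compared in the fit, 7 genes were called.

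Neuronal and glial markers moved over the same days. In the cone culture the pan-neuronal sum went from 1938 to 3011 CPM in primed cells to 143 to 259 CPM at day 35, with 14 of 14 markers called lower, beside 26.5% of all genes tested. The sum of 8 Muller glia markers went from 550.0 to 671 to 3857 to 4776 CPM, and that of 6 mesenchyme markers from 1.57 to 7.803 to 493 to 3603 CPM. The sum of 8 ganglion cell markers was 197 to 486 CPM in primed cells, 36.2 to 52.6 CPM at day 12 and 59.1 to 79.7 CPM at day 35, where 2 of the 8, Pou4f2 and Pou4f3, were at 0 counts. The part of these shifts in the fall of the synapse genes was not tested.

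**Figure D1:**
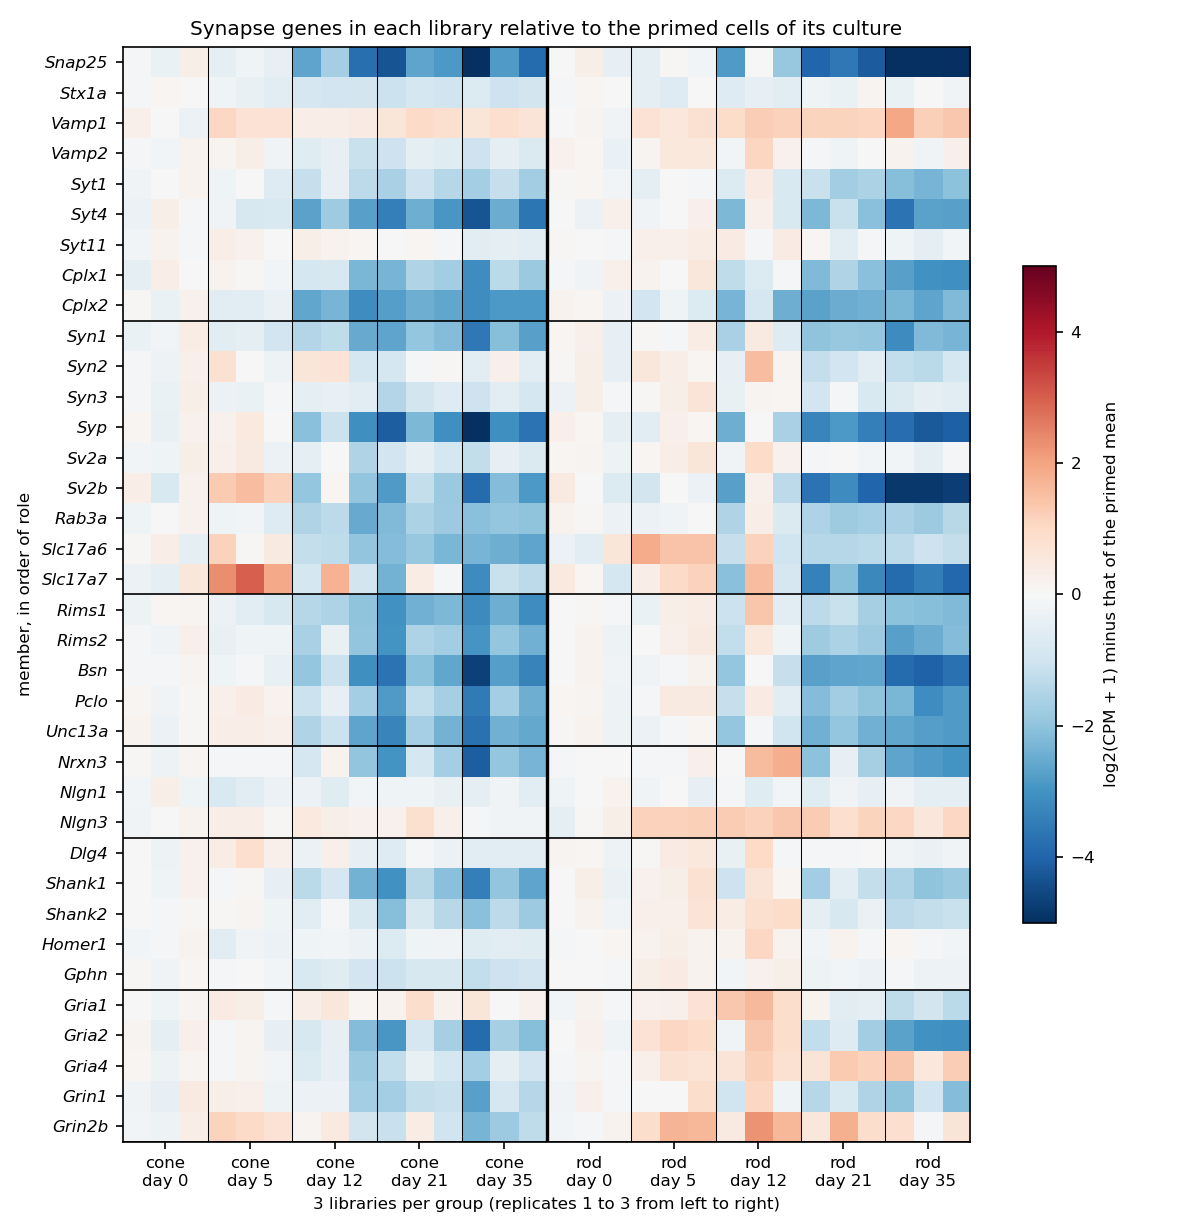
Each row is one of the 36 synapse genes, in order of role, and each column one library of the cone (left) or rod (right) culture. Colour gives log2(CPM + 1) minus that of the mean of the primed libraries of the same culture, limited to a range of -5 to 5. Blue deepens from day 12 to day 35 in the cone culture and from day 21 in the rod culture, Vamp1 stays red in both, and replicate 2 of rod day 12 is paler or redder than its neighbours.

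In the rod culture the genes stood at a median of 123% of their primed mean at day 5 and 109% at day 12. It was 39.7% at day 21 and finally 22.6%. At day 5, 4 genes were called higher and 0 lower, while 8.76% of all genes tested were called higher and 8.79% lower. At day 12 the counts were 8 higher and 2 lower, while 24.2% of all genes tested were called higher and 18.2% lower. At day 21 they were 4 higher and 21 lower (27.2% and 23.6% of all genes tested), and at day 35 they were 3 higher and 24 lower (29.4% and 26.2% of all genes tested). The median log2 fold change at day 35 was -2.15, against 0.035 over all genes tested.

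At rod day 5 the largest called rises were of Slc17a6 (2.02 ± 0.67, adjusted p = 0.0386) and of Grin2b, the NMDA receptor subunit GluN2B (1.5 ± 0.44, adjusted p = 0.0181). Grin2b stood at 16.8, 17.4 and 20.7 CPM in primed cells and at 34.9, 61.3 and 59.5 CPM at day 5, and the groups did not overlap. Both calls were lost without primed replicate 1, primed replicate 2, day 5 replicate 2 or day 5 replicate 3, and that of Slc17a6 also without day 5 replicate 1. The others called higher were Nlgn3 and Vamp1, whose calls held in every fit that left out 1 library. With only the libraries compared, 8 genes were called higher and 1 lower.

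At rod day 12, Grin2b (1.67 ± 0.44, adjusted p = 0.00321) and Gria1, an AMPA receptor subunit (1.34 ± 0.23, adjusted p = 3.35e-05), were the largest rises. Gria1 stood at 25.1, 31.3 and 25.8 CPM in primed cells and 70.5, 86.8 and 51.2 CPM at day 12, all 3 above the primed libraries. Cplx2 (-1.68 ± 0.29, adjusted p = 4.53e-05) and Stx1a, the syntaxin of the fusion complex (-0.58 ± 0.16, adjusted p = 0.00459), were the 2 called lower, and they were also the 2 genes called lower at day 12 in both cultures. The rod day 12 count turned on replicate 2: without it 6 genes were called higher and 13 lower, with 12 calls gained, among them Snap25, Syt1, Syp and Bsn, and 3 lost (Nrxn3, Homer1 and Gria4).

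At rod day 21 Slc17a6 had 1 count over the 3 libraries against 51 in the primed libraries, a ratio of 73.96-fold lower (95% exact binomial interval from counting alone 12.7 to 2978). The next largest fall was of Snap25 (-3.95 ± 0.63, adjusted p = 9.15e-06). The largest rises at that day were of Vamp1 (1.26 ± 0.18, adjusted p = 2.52e-06) and Grin2b (1.22 ± 0.44, adjusted p = 0.0219), the latter lost without primed replicate 1, primed replicate 2 or day 21 replicate 2. The calls of Syn2, Syn3, Shank1, Gria2 and Grin1 were each lost in 3 to 5 of the 6 fits that left out 1 library, and the count of 25 was 19 without primed replicate 2. From day 12 to day 35, 0 genes rose and 26 fell, while 12.6% of all genes tested were called higher and 13.8% lower. The largest of these falls were of Slc17a7 (-5.14 ± 1.02, adjusted p = 5.91e-04) and Snap25 (-4.66 ± 0.68, adjusted p = 2.21e-05). Without day 12 replicate 2, the calls of Rab3a, Slc17a6, Homer1, Gphn, Grin1 and Grin2b were lost and 20 falls were left, and with only the libraries compared in the fit 15 genes were called. Without day 12 replicate 1, the calls of Vamp2, Cplx2, Syn3, Sv2a and Dlg4 were gained and 31 genes were called.

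Markers moved in the rod culture too. The pan-neuronal sum went from 1539 to 1881 to 202 to 248 CPM between primed cells and day 35, and 13 of 14 markers were called lower, beside 26.2% of all genes tested. The Muller glia sum went from 1157 to 1428 to 4372 to 7214 CPM and the mesenchyme sum from 2.22 to 8.62 to 212 to 701 CPM. The ganglion cell sum was 91.9 to 193 CPM in primed cells and 109 to 205 CPM at day 35, ranges that overlapped, with 3 of the 8 markers at 0 counts at day 35. The part of these markers in the fall of the synapse genes was not tested.

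By role, the fusion machinery held Snap25, which of the 36 genes had the largest fall at rod day 35, and Vamp1, the only one of them called higher at day 35 in both cultures. Snap25, the plasma membrane SNARE SNAP-25, stood at 419, 351 and 539.5 CPM in the cone primed libraries and at 8.88, 59.7 and 29.4 CPM at cone day 35, and at 239, 295 and 180.5 CPM in the rod primed libraries and 3.31, 4.93 and 5.04 CPM at rod day 35. Every day 35 library was below every primed library of its culture. The log2 fold change was -3.74 ± 0.62, adjusted p = 9.14e-06 in the cone culture and -5.74 ± 0.71, adjusted p = 1.29e-07 in the rod culture. Vamp1 went the other way, from 8.43, 6.87 and 5.45 to 11.2, 13.1 and 11.2 CPM in the cone culture and from 5.02, 5.44 and 4.22 to 21.2, 12.3 and 14.01 CPM in the rod culture. Its groups did not overlap either, and both rises were called (0.78 ± 0.18, adjusted p = 5.09e-04 and 1.69 ± 0.18, adjusted p = 1.53e-08).

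Vamp2, which encodes the other synaptobrevin, fell in the cone culture (-0.73 ± 0.24, adjusted p = 0.0125) and was not called in the rod culture (0.098 ± 0.24, adjusted p = 0.757). Stx1a, which fell in the cone culture (-0.94 ± 0.16, adjusted p = 1.14e-05), was likewise not called in the rod culture (-0.19 ± 0.16, adjusted p = 0.314). Vamp2 went from 91.9 ± 10.9 to 55.4 ± 11.2 CPM in the cone culture and from 55.9 ± 10.9 to 59.7 ± 8.87 CPM in the rod culture (mean ± SD, n = 3), and Stx1a from 19.1 ± 1.04 to 9.93 ± 1.34 CPM in the cone culture and from 14.0 ± 1.17 to 12.3 ± 1.48 CPM in the rod culture. Among the synaptotagmins, Syt1, the fast calcium sensor of release, went from 377 ± 47.6 to 132 ± 31.3 CPM in the cone culture (-1.51 ± 0.28) and from 245 ± 21.3 to 54.2 ± 5.32 CPM in the rod culture (-2.18 ± 0.28), with adjusted p of 3.55e-05 and 3.11e-07. Syt4, another synaptotagmin, fell in both (-3.61 ± 0.56, adjusted p = 3.37e-06 and -3.77 ± 0.62, adjusted p = 1.12e-05), from 42.5 ± 8.79 to 3.49 ± 2.86 CPM in the cone culture and from 15.1 ± 3.12 to 1.07 ± 0.709 CPM in the rod culture. Syt11, a synaptotagmin that does not bind calcium, had the smallest fall of the fusion genes in the cone culture (-0.54 ± 0.14, adjusted p = 0.00155) and was not called in the rod culture (-0.28 ± 0.14, adjusted p = 0.0886). Its level went from 173 ± 20.96 to 119 ± 4.38 CPM in the cone culture and from 204 ± 9.12 to 168 ± 21.9 CPM in the rod culture.

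The complexins clamp and then promote fusion. Cplx1 was low from the start, at 7.55, 13.5 and 10.8 CPM in cone primed libraries and 8.27, 7.76 and 10.9 CPM in rod primed libraries. It stood at 0.341, 3.61 and 2.18 CPM at cone day 35, where the first library lay under the others, and at 0.51, 0.243 and 0.194 CPM at rod day 35, close to the floor (-2.38 ± 0.50, adjusted p = 2.23e-04 and -4.84 ± 0.64, adjusted p = 4.18e-07). Cplx2 was far more abundant and went from 456, 349.9 and 516 to 50.01, 59.1 and 59.6 CPM and from 248, 234 and 178 to 44.4, 34.6 and 46.9 CPM. Its primed and day 35 libraries did not overlap in either culture (-2.97 ± 0.31, adjusted p = 4.21e-09 and -2.39 ± 0.30, adjusted p = 1.84e-07).

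In the vesicle group, 7 of 9 genes fell in the cone culture and 8 of 9 in the rod culture at day 35, beside 26.5% and 26.2% of all genes tested. Syp, the vesicle membrane protein synaptophysin, stood at 222, 158 and 238 CPM in cone primed libraries and 5.29, 23.7 and 15.2 CPM at day 35, and at 173, 155 and 103 and 9.43, 6.87 and 7.42 CPM in the rod culture. All day 35 libraries were below all primed libraries (-3.81 ± 0.57, adjusted p = 2.20e-06 and -4.18 ± 0.59, adjusted p = 1.11e-06). Of the 2 genes for the transporter-like protein SV2, Sv2b fell in both cultures (-2.95 ± 0.64, adjusted p = 2.79e-04 and -5.19 ± 0.72, adjusted p = 7.81e-07), while Sv2a fell in the cone culture (-0.76 ± 0.30, adjusted p = 0.0339) and was not called in the rod culture (-0.20 ± 0.31, adjusted p = 0.595). Sv2a went from 73.2 ± 14.8 to 43.2 ± 12.03 CPM in the cone culture and from 38.7 ± 5.74 to 33.5 ± 4.803 CPM in the rod culture (mean ± SD, n = 3), and Sv2b was at 3.07, 12.1 and 7.02 CPM at cone day 35 and at 2.72, 2.75 and 2.97 CPM at rod day 35. Sv2b had first been at 142, 169.5 and 128 CPM at cone day 5 against 72.2, 33.8 and 65.7 CPM in primed cells, groups that did not overlap, although this difference was not called (1.36 ± 0.57, adjusted p = 0.0868).

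Synapsins tether vesicles to the cytoskeleton. Syn1 fell in both cultures (-2.84 ± 0.43, adjusted p = 3.05e-06 and -2.79 ± 0.46, adjusted p = 9.62e-06), from 53.2 ± 14.7 to 7.42 ± 4.004 CPM in the cone culture. Syn2 did not pass the test in the cone culture (-0.30 ± 0.57, adjusted p = 0.673) and fell in the rod culture (-2.24 ± 0.69, adjusted p = 0.00741), where it stood at 2.31, 2.82 and 1.35 CPM in primed cells and 0.34, 0.243 and 0.71 CPM at day 35. Syn3 fell in both (-0.84 ± 0.24, adjusted p = 0.00426 and -0.63 ± 0.25, adjusted p = 0.0329), with the rod call lost without primed replicate 2, day 35 replicate 1 or day 35 replicate 3. Its level went from 19.6 ± 4.42 to 10.9 ± 2.26 CPM in the cone culture and from 12.2 ± 2.79 to 7.903 ± 0.804 CPM in the rod culture. Its exons share 14.1% of their bases with other genes. Rab3a, the vesicle GTPase that binds RIM proteins, fell as well (-2.08 ± 0.32, adjusted p = 3.69e-06 and -1.67 ± 0.32, adjusted p = 9.19e-05), from 70.6 ± 11.4 to 16.6 ± 1.03 CPM in the cone culture and from 41.8 ± 6.97 to 13.1 ± 1.97 CPM in the rod culture.

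Both vesicular glutamate transporters of the list ended low. Slc17a7 peaked at day 5 in the cone culture and stood at 0.512, 5.15 and 4.36 CPM at day 35, a difference from primed cells that missed the threshold (-1.87 ± 0.87, adjusted p = 0.0693). It passed with no filter on low counts (adjusted p = 0.0466) and with only the libraries compared in the fit (adjusted p = 0.0281). For rod libraries it went from 32.7, 24.9 and 12.1 to 0.68, 1.21 and 0.581 CPM (-4.81 ± 1.03, adjusted p = 2.84e-04). Slc17a6 had 5 counts over the 3 cone libraries at day 35 (-5.14 ± 0.92, adjusted p = 2.94e-05) and 8 over the 3 rod libraries (-3.04 ± 0.92, adjusted p = 0.00652). The rod call was lost without rod primed replicate 3, which held the highest primed level (1.22, 0.806 and 3.05 CPM in the 3 primed libraries).

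All 5 active zone genes fell by day 35 in both cultures, beside 26.5% (cone) and 26.2% (rod) of all genes tested. Bsn and Pclo encode bassoon and piccolo, the giant scaffold proteins of the active zone. Bsn stood at 151, 156 and 176 CPM in cone primed libraries and 5.38, 23.01 and 15.01 CPM at day 35, and at 88.6, 102 and 80.6 and 5.44, 4.53 and 5.94 CPM in the rod culture (-3.48 ± 0.47, adjusted p = 4.42e-07 and -4.09 ± 0.50, adjusted p = 1.17e-07). The day 35 libraries lay below every primed library, with a wide spread in the cone culture and a narrow one in the rod culture. Pclo went from 420.2 ± 40.7 to 80.5 ± 47.8 CPM (-2.38 ± 0.41, adjusted p = 1.47e-05) and from 282 ± 38.4 to 42.8 ± 13.4 CPM (-2.72 ± 0.41, adjusted p = 3.52e-06). Rims1 and Rims2, which encode the RIM proteins that link vesicles to calcium channels, fell by 3.03 and 2.41 on the log2 scale in the cone culture (adjusted p = 7.36e-07 and 6.52e-06) and by 2.40 and 2.51 in the rod culture (adjusted p = 4.77e-05 and 5.53e-06). Their levels went from 61.7 ± 9.14 to 7.55 ± 2.53 CPM in the cone culture and from 18.7 ± 0.963 to 3.53 ± 0.225 CPM in the rod culture for Rims1, and from 129.5 ± 21.1 to 24.3 ± 8.74 CPM in the cone culture and from 90.8 ± 14.04 to 15.9 ± 3.37 CPM in the rod culture for Rims2. Unc13a, the priming factor Munc13-1, changed by -2.87 ± 0.42, adjusted p = 1.33e-06 in the cone culture and -2.84 ± 0.42, adjusted p = 2.24e-06 in the rod culture, from 107 ± 16.8 to 14.6 ± 6.65 CPM in the cone culture and from 79.4 ± 11.7 to 11.1 ± 1.03 CPM in the rod culture.

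The 3 adhesion genes did not move together. Nrxn3, a presynaptic neurexin, fell in both cultures (-2.61 ± 0.55, adjusted p = 1.94e-04 and -3.02 ± 0.58, adjusted p = 7.83e-05), from 85.05 ± 12.7 to 13.9 ± 8.94 CPM and from 48.2 ± 1.49 to 5.98 ± 0.862 CPM. Neuroligins are its postsynaptic partners. Nlgn1 stood at 116, 159 and 112 CPM in cone primed libraries and 91.4, 113 and 86.1 CPM at day 35, groups that overlapped, with a small called fall (-0.42 ± 0.17, adjusted p = 0.0399), and it was not called in the rod culture (-0.35 ± 0.17, adjusted p = 0.0799). Nlgn3 went from 7.05, 10.4 and 12.3 to 21.2, 15.4 and 21.3 CPM in the rod culture, a called rise (0.95 ± 0.20, adjusted p = 2.53e-04), and was not called in the cone culture (-0.14 ± 0.20, adjusted p = 0.577). Of the exon bases of Nlgn3, 41.2% are shared with the overlapping gene model Gm21986, and how the authors' counting split such reads is not given in the sources used here.

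Among postsynaptic scaffolds, 5 of 5 fell in the cone culture and 2 of 5 in the rod culture, beside 26.5% and 26.2% of all genes tested. Shank1 and Shank2, the master scaffolds of excitatory synapses, fell in both: Shank1 by -2.68 ± 0.44 and -1.90 ± 0.44 (adjusted p = 8.42e-06 and 6.08e-04) and Shank2 by -1.78 ± 0.25 and -1.26 ± 0.25 (adjusted p = 7.09e-07 and 1.01e-04). Shank1 went from 66.3 ± 9.94 to 10.4 ± 5.41 CPM in the cone culture and from 31.2 ± 6.97 to 8.33 ± 1.64 CPM in the rod culture, and Shank2 from 47.3 ± 2.58 to 13.8 ± 4.09 CPM in the cone culture and from 30.6 ± 3.89 to 12.7 ± 0.831 CPM in the rod culture. Dlg4, which encodes PSD-95, stood at 110.1 ± 18.9 CPM in cone primed and 74.7 ± 0.382 CPM in cone day 35 libraries (-0.56 ± 0.24, adjusted p = 0.0492), and was not called in the rod culture (-0.22 ± 0.24, adjusted p = 0.447). Homer1, which links metabotropic receptors to Shank proteins, went from 45.4 ± 5.19 to 30.1 ± 1.21 CPM in the cone culture (-0.60 ± 0.17, adjusted p = 0.00385) and was not called in the rod culture (-0.039 ± 0.17, adjusted p = 0.863). Gphn encodes gephyrin, the scaffold of glycine and GABA receptors. It stood at 45.4, 38.4 and 47.1 CPM in cone primed libraries and 18.2, 20.9 and 22.3 CPM at day 35, without overlap (-1.09 ± 0.12, adjusted p = 1.24e-08), against 40.7, 40.8 and 38.4 and 38.1, 33.5 and 33.2 CPM in the rod culture (-0.19 ± 0.12, adjusted p = 0.164).

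The glutamate receptor subunits did not move together. Gria2, the AMPA subunit that makes the channel impermeable to calcium, stood at 154, 101 and 168 CPM in cone primed libraries and 8.88, 43.4 and 31.2 CPM at day 35, and at 52.8, 62.4 and 46.7 and 7.65, 5.74 and 5.62 CPM in the rod culture. The day 35 libraries were below all primed libraries in both (-2.34 ± 0.48, adjusted p = 1.49e-04 and -3.09 ± 0.52, adjusted p = 1.48e-05). Gria1 was not called in the cone culture (0.31 ± 0.23, adjusted p = 0.247) and fell in the rod culture (-1.23 ± 0.24, adjusted p = 7.56e-05), after its rise there at day 12. Gria4 went in opposite directions: from 106, 80.8 and 106 to 29.4, 71.1 and 49.95 CPM in the cone culture (-0.96 ± 0.30, adjusted p = 0.00817) and from 47.1, 53.8 and 44.98 to 125, 71.4 and 117 CPM in the rod culture (1.10 ± 0.30, adjusted p = 0.00313). The cone call was lost without day 35 replicate 1, the lowest library.

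NMDA receptors need the subunit GluN1, encoded by Grin1, together with a GluN2 subunit. Grin1 fell in both cultures (-1.61 ± 0.52, adjusted p = 0.00945 and -2.13 ± 0.59, adjusted p = 0.00318), to 1.88, 9.701 and 5.97 CPM and 1.105, 3.23 and 0.904 CPM at day 35. Its cone call was lost without primed replicate 3 or day 35 replicate 1. Grin2b stood at 36.6, 33.95 and 50.3 CPM in cone primed, 88.5, 78.3 and 66.5 CPM at day 5 and 7.17, 10.7 and 15.98 CPM at day 35 of the cone culture, a fall by day 35 (-1.83 ± 0.45, adjusted p = 0.00101). In the rod culture it was not called at day 35 (0.53 ± 0.44, adjusted p = 0.312), with 33.6, 17.1 and 29.1 CPM.

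**Figure D2:**
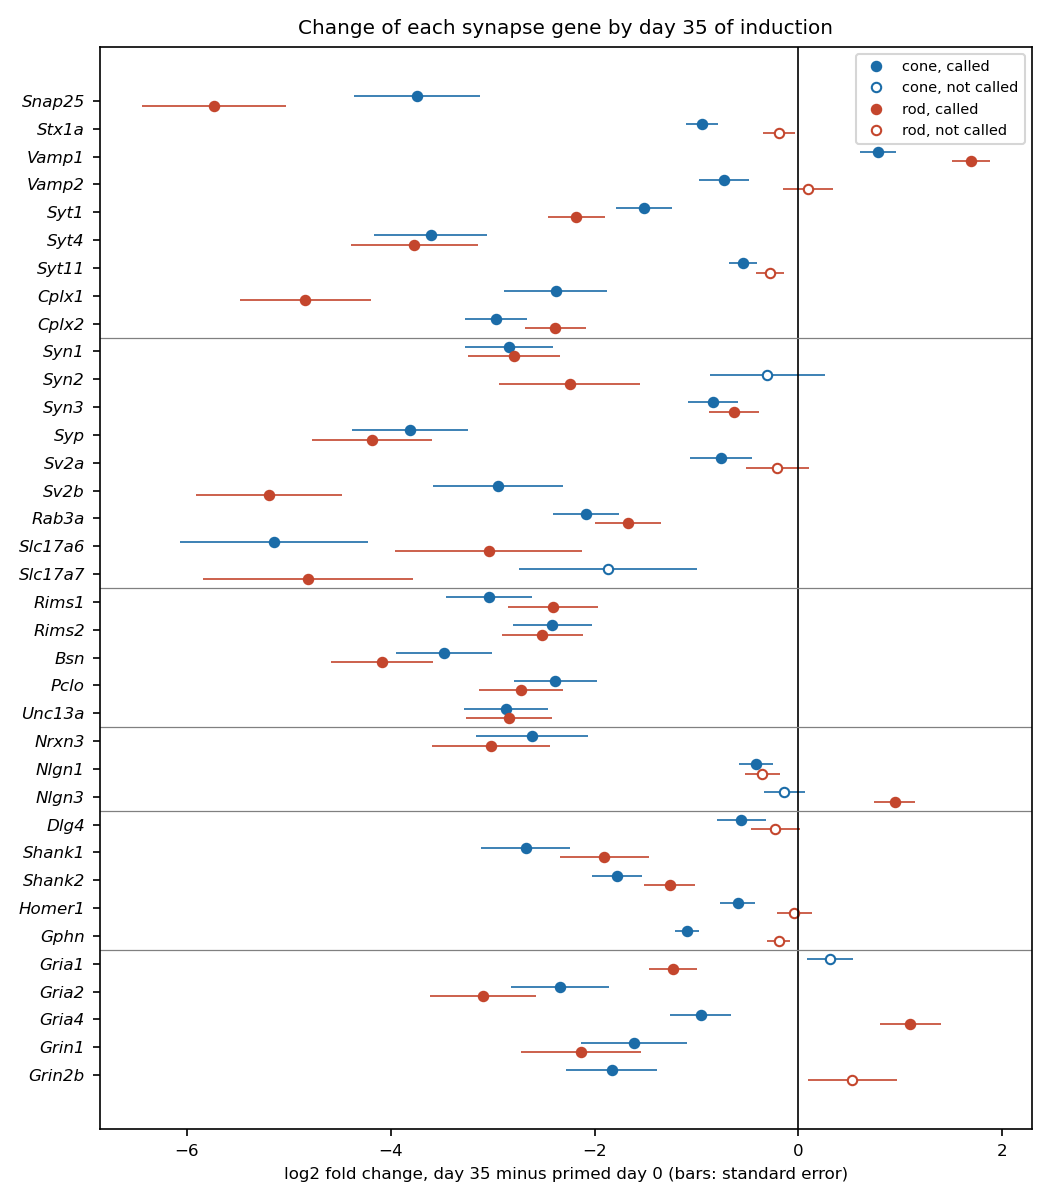
Points give the log2 fold change of each of the 36 synapse genes between day 35 and the primed cells of its culture, blue for the cone and red for the rod culture. Bars are standard errors of the model, and filled points were called at an adjusted p under 0.05. Most filled points lie left of 0, Vamp1 lies right of 0 in both cultures, and Gria4 lies left of 0 in the cone and right of 0 in the rod culture.

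Across both cultures at day 35, 21 of the 36 genes were called lower in each, 9 were called lower in the cone culture only by the threshold, 3 in the rod culture only by the threshold, and none was called in neither. Of all genes tested, 26.5% were called lower in the cone culture and 26.2% in the rod culture. The shares called in both, in a single culture or in neither were not computed, so how unusual these counts are is not known. The 9 are Stx1a, Vamp2, Syt11, Sv2a, Nlgn1, Dlg4, Homer1, Gphn and Grin2b, and the 3 are Syn2, Slc17a7, whose cone call depended on the setting as given above, and Gria1. In the rod culture Nlgn1 was called lower without primed replicate 1 or day 35 replicate 1, and Syt11 without day 35 replicate 3. Passing the threshold in a single culture does not show a difference between them. Tests between the cultures at each day, and of their difference over all days together, follow. Of the 31 cone falls at day 35, those of Vamp2, Sv2a, Nlgn1, Dlg4, Gria4 and Grin1 were lost without day 35 replicate 1, the library lowest in 27 genes. Those of Vamp2, Sv2a, Dlg4 and Grin1 were also lost without primed replicate 3, that of Dlg4 without primed replicate 1 or day 35 replicate 2, those of Sv2a, Nlgn1 and Dlg4 without day 35 replicate 3, and that of Nlgn1 without primed replicate 2.

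**Figure D3:**
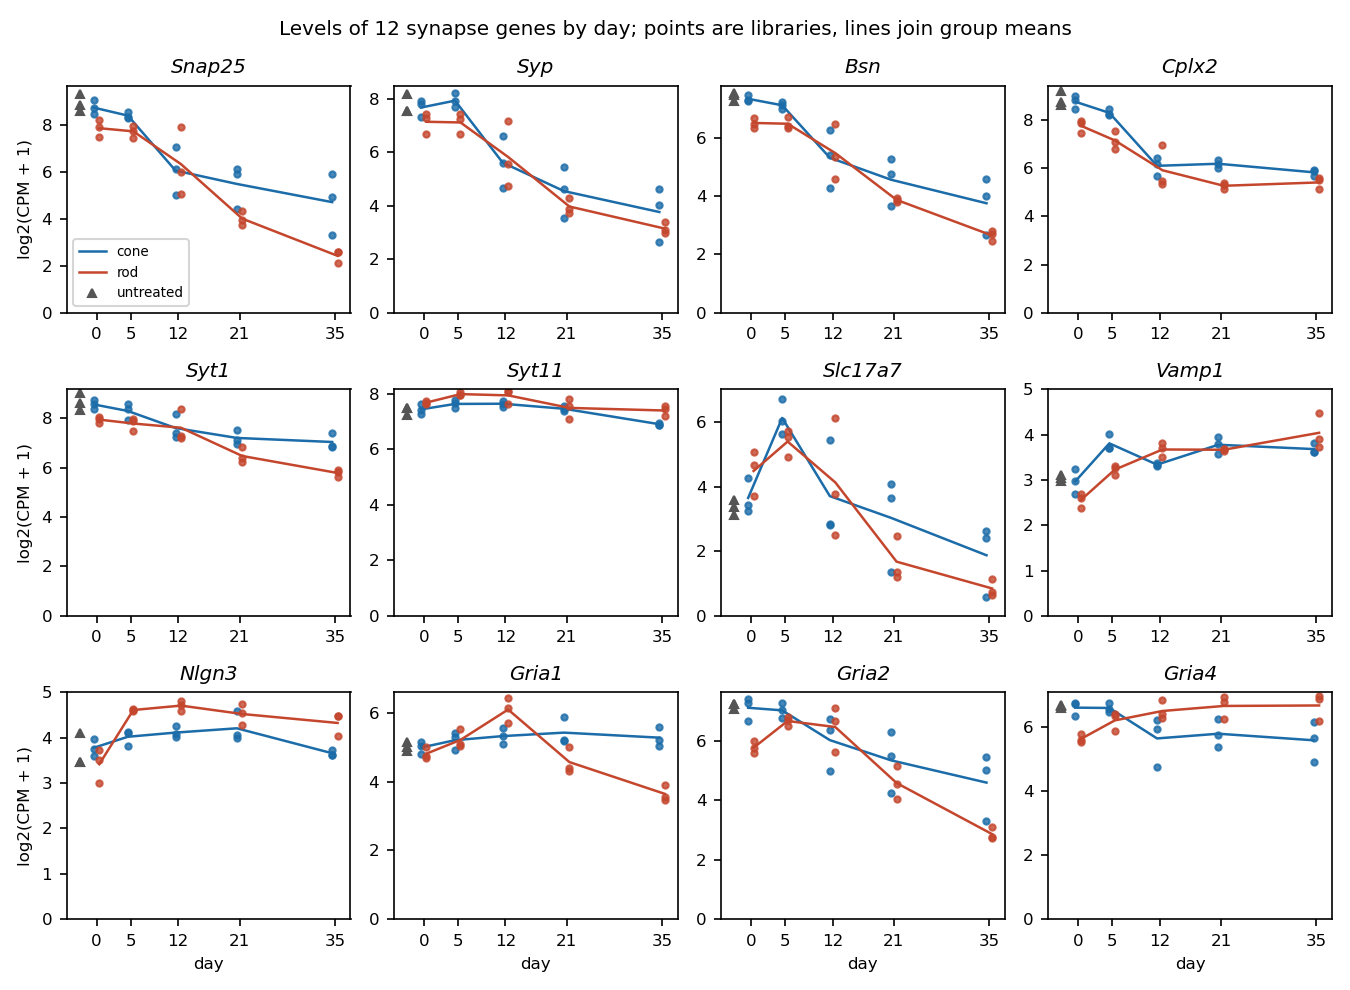
Levels of 12 synapse genes as log2(CPM + 1) against day, with 1 point per library, blue for the cone and red for the rod culture, triangles for untreated cells, and lines through the mean of the log2 values. Snap25, Syp, Bsn and Cplx2 descend in both cultures, Slc17a7 peaks at day 5, and the red Gria1 line peaks at day 12.

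Levels can be ranked between genes only per length of exon. The length used was that of all annotated exons of a gene merged together, so the order depends on this choice. In cone primed cells the highest were Cplx2 at 89.4, Snap25 at 64.3, Syt1 at 45.2 and Syp at 39.6 CPM per kb of exon (means of 3 libraries). At cone day 35 the order began with Syt11 at 22.8, Syt1 at 15.9 and Vamp2 at 14.5 CPM per kb, while Snap25 stood at 4.81. At rod day 35 it began with Syt11 at 32.4, Gria4 at 16.5 and Vamp2 at 15.7 CPM per kb, while Snap25 stood at 0.652. Syt1 was thus near the top of the cone order at both times, while Snap25 was near the top only at the earlier one.

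Cone and rod libraries were compared at each day, which asks whether the inducing conditions set these genes apart. At day 0, 3 genes were called higher in cone primed than in rod primed libraries and 0 lower (2.5% and 4.77% of all genes tested). Rims1 had the largest difference (1.72 ± 0.40, adjusted p = 0.00708), with 51.2, 66.2 and 67.8 CPM against 18.4, 19.8 and 17.9 CPM and no overlap. Cplx2 (1.00 ± 0.28, adjusted p = 0.0307) and Gria4, the third, were called too, but Rims1 alone was called without cone primed replicate 1 or 3, or without any rod primed replicate. The count depended on the fit, with 21 genes called with only the libraries compared, 7 with DESeq2 and 6 with no filter on low counts, all of them higher in cone primed libraries. The shares of all genes given for days 0 and 5 belong to the main fit and cannot be set beside counts of the other fits. At day 5, 2 were higher and 1 lower in cone libraries (3.48% and 5.8% of all genes tested): Cplx2 (1.12 ± 0.29, adjusted p = 0.0118) and Vamp1 (0.64 ± 0.17, adjusted p = 0.0174) higher, and Nlgn3 lower (-0.61 ± 0.19, adjusted p = 0.0434). The count at day 5 was 0 without rod replicate 1, and 1, Cplx2, without cone replicate 1 or rod replicate 2, and the Nlgn3 call was also lost without cone replicate 2, cone replicate 3 or rod replicate 3. With only the libraries compared, 14 were higher and 3 lower at this day.

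At day 12, 0 genes were higher and 3 lower in cone libraries (5.98% and 4.12% of all genes tested). The largest differences were of Gria1 (-0.81 ± 0.22, adjusted p = 0.0183) and Gphn (-0.81 ± 0.12, adjusted p = 3.77e-05), and the third was of Nlgn3. The count was 6 without cone replicate 2, 1 (Gphn) without cone replicate 3, 7 without rod replicate 1 and 5 without rod replicate 2, and the Gria1 call was lost without cone replicate 3 or rod replicate 2. With only the libraries compared 0 genes were called. At day 21, 2 were higher and 1 lower (5.86% and 3.14% of all genes tested). Cplx2 (0.94 ± 0.29, adjusted p = 0.0418) and Gria1 (0.89 ± 0.23, adjusted p = 0.0118) were higher in cone libraries and Gphn lower (-0.57 ± 0.12, adjusted p = 0.00229). The Cplx2 call was lost without any 1 of the 6 libraries and that of Gria1 without cone replicate 2, rod replicate 2 or rod replicate 3, the last 2 of which left Gphn alone. Calls of Snap25 and Syn2 were gained without cone replicate 1, and that of Gria4 without cone replicate 2 or rod replicate 1. DESeq2 called 7 genes at this day and the fit with no filter 5. Gphn was thus lower in cone than in rod libraries at days 12, 21 and 35.

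At day 35, 7 genes were higher and 4 lower in cone than in rod libraries (7.77% and 4.51% of all genes tested). Snap25 had the largest difference (2.87 ± 0.66, adjusted p = 0.00385), with no overlap between the cone and rod libraries given above. Cplx1 followed (2.70 ± 0.69, adjusted p = 0.00958), although its groups overlapped, and the others called higher were Syt1, Syn2, Gria1, Gria2 and Grin1. Of these, Gria1 stood at 47.4, 31.9 and 36.4 CPM in cone and 10.8, 14.2 and 10.1 CPM in rod libraries, which did not overlap. Gria4 (-1.06 ± 0.30, adjusted p = 0.0198) and Gphn (-0.77 ± 0.12, adjusted p = 6.48e-05) were the largest differences towards rod, together with Syt11 and Nlgn3. The count of 11 was 7 without cone replicate 2 or cone replicate 3 and 6 without rod replicate 1 or rod replicate 3. It was 12 without cone replicate 1, where the calls of Syt4, Bsn and Pclo were gained. Those of Vamp1 and Grin2b were gained without rod replicate 2. Snap25, Syt1, Gria1 and Gphn were called in each of the 6 fits that left out 1 library, the call of Cplx1 was lost without cone replicate 2 or rod replicate 3, that of Gria2 without cone replicate 2, and those of Gria4 and Syt11 without cone replicate 1, cone replicate 3, rod replicate 1 or rod replicate 3. The Grin1 call was lost without cone replicate 2, cone replicate 3, rod replicate 1 or rod replicate 3. That of Syn2 was lost without cone replicate 2, rod replicate 1 or rod replicate 2, and that of Nlgn3 without cone replicate 3, rod replicate 1 or rod replicate 3. Of 14 pan-neuronal markers, 3 were called higher in cone than rod libraries at this day and 0 lower, and of 6 mesenchyme markers 5 were higher, and the part of these in the differences was not tested.

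Whether the distance between cone and rod libraries moved over the days was tested by an F test with 4 degrees of freedom. It was called for 5 of the 36 genes, while 9.22% of all genes tested were called. These were Gria1 (adjusted p = 1.03e-04), Gphn (adjusted p = 0.00152), Gria4 (adjusted p = 0.00477), Vamp1 (adjusted p = 0.00919) and Stx1a (adjusted p = 0.0141). For Gria1 the difference was 0.18 ± 0.23 at day 0, -0.81 ± 0.22 at day 12 and 1.73 ± 0.23 at day 35. For Gria4 it was 1.00 ± 0.30 at day 0 and -1.06 ± 0.30 at day 35, so cone libraries started higher and ended lower. Of the 9 genes that fell in the cone culture and were not called in the rod culture, only Stx1a and Gphn passed this test. With replicate 3 of each cone and rod group left out, Gria1 alone was called (adjusted p = 0.0258). The calls of Stx1a, Vamp1 and Gria4 were also lost with replicate 1 left out, and that of Stx1a with replicate 2 left out. The test called 11 genes with DESeq2 and 8 with no filter on low counts.

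**Figure D4:**
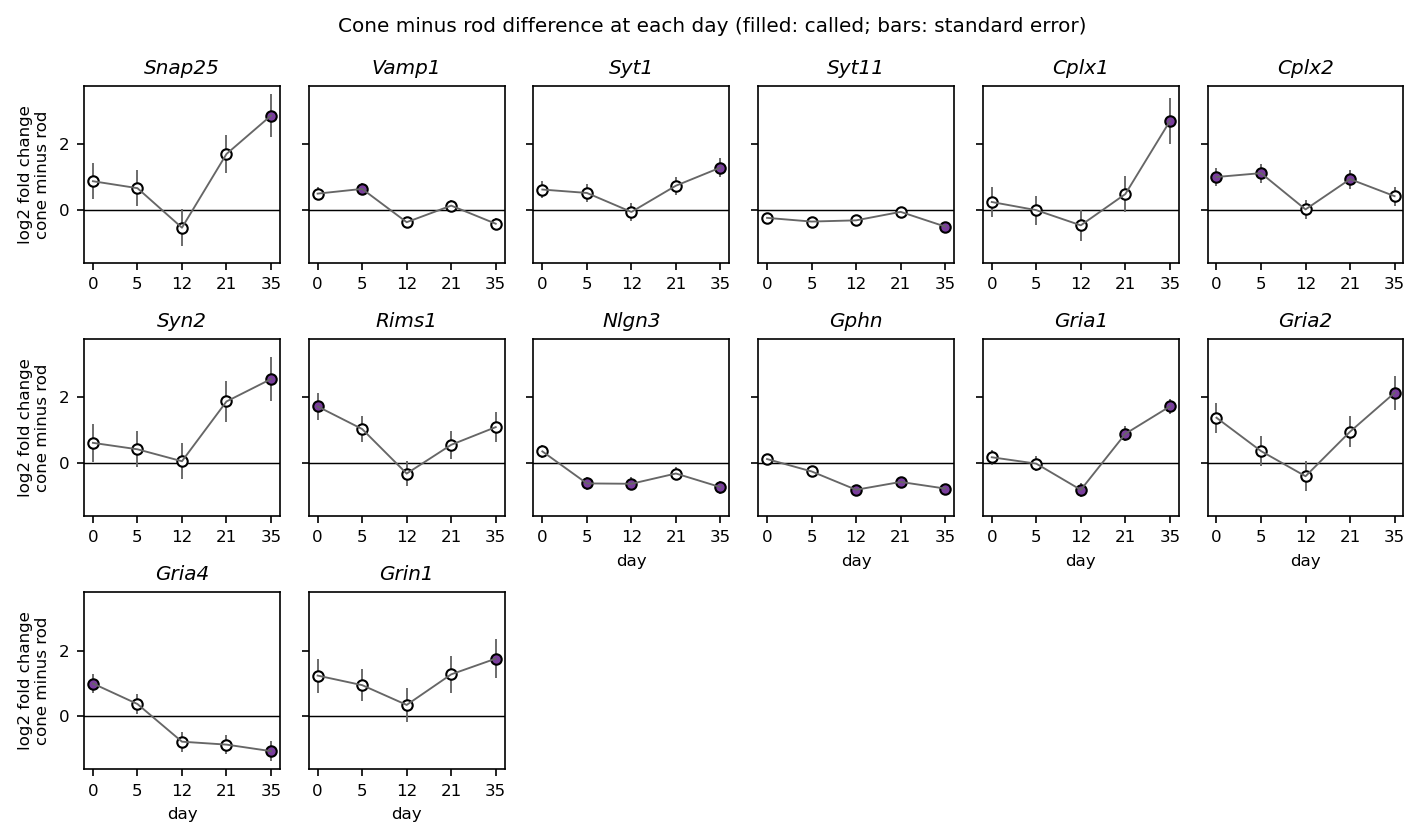
Cone minus rod log2 fold change at days 0, 5, 12, 21 and 35 for the 14 synapse genes called at one day or more, with standard errors and filled points where the difference was called. Snap25, Syn2, Gria1 and Gria2 reach their highest values at day 35, while Gria4 crosses from above 0 at day 0 to below 0 at day 35.

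Priming was compared with untreated cells at day 0, and both comparisons share the untreated libraries. Between cone primed and untreated libraries 0 of the 36 genes were called by edgeR, while 0% of all genes tested were called higher and 0% lower. None reached an unadjusted p under 0.05 with edgeR or DESeq2, 2 did so with limma on log2(TPM + 1), and none was called by any of the 3 tools. Their log2 fold changes lay between -0.27 and 0.49. Between rod primed and untreated libraries 0 were called higher and 9 lower, while 6.71% of all genes tested were called higher and 3.56% lower. The largest falls were of Rims1 (-1.71 ± 0.40, adjusted p = 0.00596) and Syt4 (-1.52 ± 0.49, adjusted p = 0.0486), followed by Gria2, Cplx2, Gria4, Sv2a, Vamp2, Shank2 and Stx1a. Rims1 stood at 46.2, 69.97 and 66.3 CPM in untreated libraries against 18.4, 19.8 and 17.9 CPM in rod primed ones, with no overlap. Without untreated replicate 2, or without rod primed replicate 3, Rims1 was the single gene called. The count was 2 without untreated replicate 3, 3 without rod primed replicate 1 and 5 without replicate 2 of that group, and the Syt4 call was lost in each of the 6 fits that left out 1 library. DESeq2 called 14 genes lower, and with only the libraries compared 2 were called higher and 24 lower. Shares of all genes were not computed for these 2 fits.

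Shares within gene families were computed per length of the same merged exons, which was 15.5 kb for Gria2, 6.04 kb for Gria1 and 6.3 kb for Gria4. How large a share each gene holds thus depends on this choice of length. Gria3, the AMPA subunit that is not on the list, and Slc17a8 (VGLUT3) were added as family members after their values were seen. Per kb of exon, the 4 AMPA subunits summed to 31.8 CPM in cone primed and 31.4 CPM in cone day 35 libraries. Within that sum Gria2 went from 28.2% ± 2.32 to 5.51% ± 3.12 (mean ± SD, n = 3) and Gria3 from 6.804% ± 0.47 to 48.96% ± 4.89. In the rod culture the sum was 16.9 and 28.6 CPM per kb, the Gria2 share went from 20.4% ± 1.21 to 1.43% ± 0.213, and Gria4 held 57.1% ± 9.47 at day 35. Gria3 itself went from 21.4 ± 4.67 to 150.5 ± 4.01 CPM in the cone culture (2.82 ± 0.21, adjusted p = 9.32e-12) and from 12.2 ± 2.09 to 95.6 ± 7.97 CPM in the rod culture (2.96 ± 0.21, adjusted p = 1.44e-11).

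Among vesicular glutamate transporters, Slc17a8 came to hold most of the summed level. It stood at 0, 0.323 and 0.105 CPM in cone primed libraries, with 5 counts in all, and at 41.3, 71.2 and 42.7 CPM at day 35 (8.2 ± 0.58, adjusted p = 3.88e-12). In the rod culture it went from 4 counts over 3 primed libraries to 11.5, 9.78 and 8.91 CPM (6.06 ± 0.64, adjusted p = 9.94e-09). Its share of the family per kb was 94.7% ± 3.38 at cone day 35 and 91.8% ± 3.43 at rod day 35. At rod day 12 the share was 86.2, 9.23 and 50.1% in replicates 1, 2 and 3, lowest in the library with the highest photoreceptor sum. VGLUT3 is the transporter of a class of amacrine cells, and the sum of the 8 amacrine and horizontal cell markers went from 1040.0 to 1087 to 514 to 661 CPM in the cone culture. In rod libraries the same sum was 739.9 to 784 CPM in primed cells and 633 to 793 CPM at day 35, ranges that overlapped. Single markers went lower: 3 of the 8 had a mean under 1 CPM at day 35 in each culture, against 0 in primed cells. Ptf1a was at 0 counts at day 35 in both cultures, and Lhx1 in the rod culture. The part of other cell types in the rise of Slc17a8 was not tested.

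The other families were described in the same way. The Vamp1 share of the 2 synaptobrevins went from 2.79% ± 0.795 to 7.53% ± 0.978 in the cone culture and from 3.21% ± 0.344 to 9.01% ± 2.04 in the rod culture, so Vamp2 remained the main form per kb. The Syn1 share of the 3 synapsins went from 88.5% ± 1.88 to 61.6% ± 9.28 and from 85.0% ± 2.25 to 58.4% ± 9.37. Of the 3 synaptotagmins, Syt11 went from 37.2% ± 2.57 to 58.1% ± 5.25 and from 54.1% ± 1.21 to 82.6% ± 0.866.

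**Figure D5:**
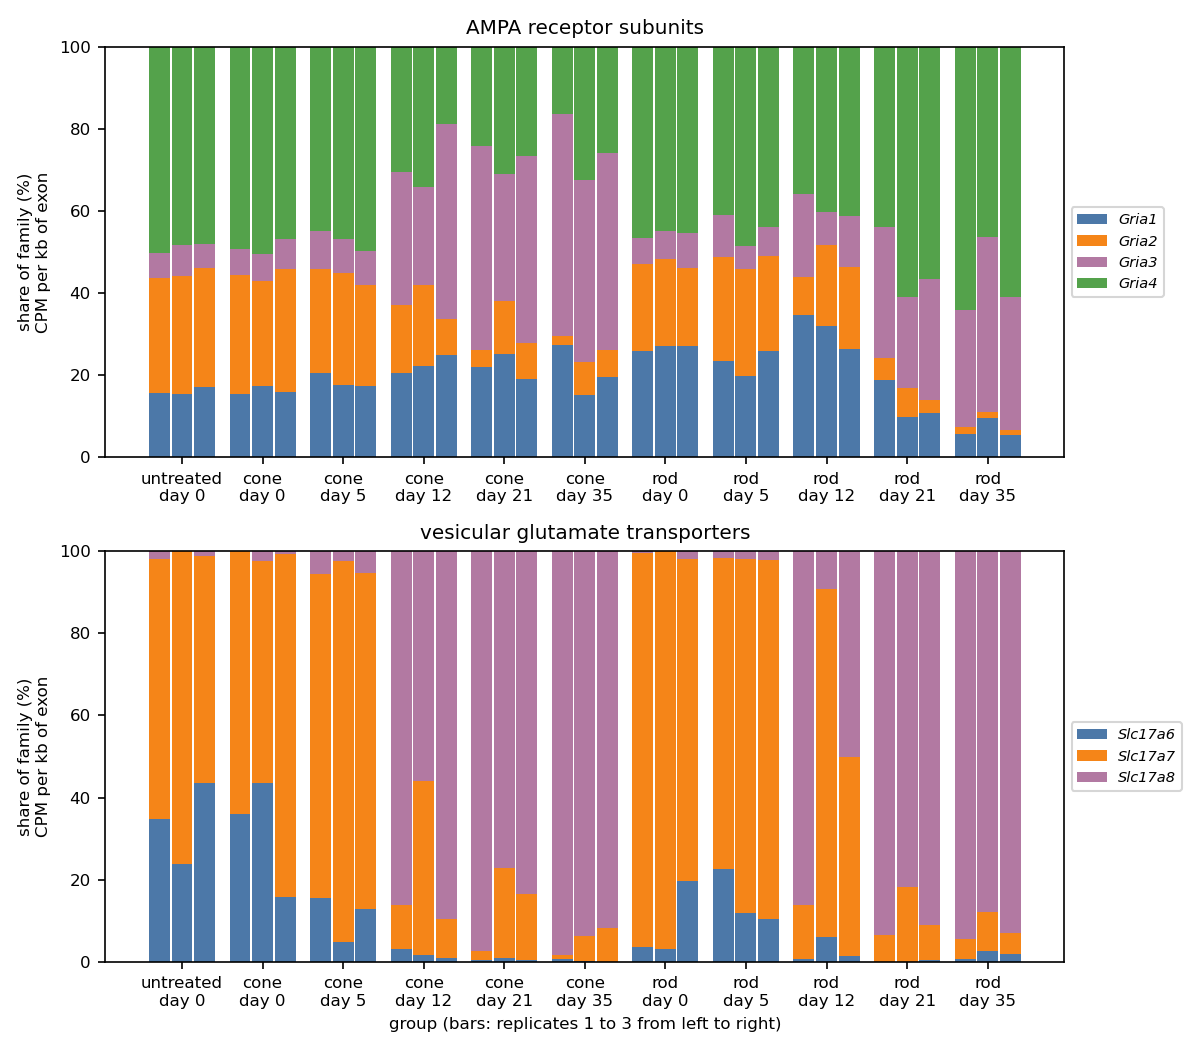
Stacked bars give the share of each AMPA receptor subunit (top) and vesicular glutamate transporter (bottom) in the summed CPM per kb of exon of its family, with 1 bar per library. The Gria2 segment narrows and the Gria3 segment widens towards day 35. Slc17a8 fills most of the lower bars from day 12 in the cone culture and from day 21 in the rod culture. At rod day 12 the libraries differ, and Slc17a7 dominates replicate 2.

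Other genes of the synapse, on a list of 104 of which 102 were tested, were counted in the same way. At cone day 35, 24 were called higher and 58 lower (median log2 fold change -1.02), beside 31.1% and 26.5% of all genes tested. At rod day 35 the counts were 21 and 58 (median -1.20), beside 29.4% and 26.2% of all genes tested. Of 24 release and vesicle genes, 3 rose and 16 fell in the cone culture and 3 and 15 in the rod culture. In both, the largest rise was of Cadps2, a priming factor of dense-core vesicles (2.10 ± 0.38, adjusted p = 3.75e-05 and 2.01 ± 0.36, adjusted p = 3.34e-05), and the largest fall of Doc2b, a calcium sensor of release (-4.54 ± 0.95, adjusted p = 1.87e-04 and -6.47 ± 1.22, adjusted p = 6.71e-05). Of 12 ribbon synapse genes, 0 rose and 7 fell in the cone culture and 1 and 10 in the rod culture. The largest falls were of Egflam, pikachurin, which lies in the cleft of the photoreceptor ribbon synapse (-4.84 ± 0.89, adjusted p = 4.22e-05 and -6.26 ± 1.04, adjusted p = 1.21e-05), and the rise in the rod culture was of Syt3 (0.94 ± 0.38, adjusted p = 0.0385).

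Of 10 further active zone and presynaptic channel genes, 3 rose and 7 fell in the cone culture, led by Unc13c (1.16 ± 0.27, adjusted p = 5.28e-04) and the liprin gene Ppfia2 (-3.94 ± 0.58, adjusted p = 1.92e-06). Among rod libraries 2 rose and 6 fell, led by the ELKS gene Erc1 (1.23 ± 0.13, adjusted p = 1.28e-08) and Rimbp2 (-3.68 ± 0.71, adjusted p = 8.78e-05). Of 8 genes tested for transmitter synthesis and transport, 3 rose and 4 fell in the cone culture and 2 and 5 in the rod culture. Beside Slc17a8, the largest falls were of Gad2, which makes GABA (-3.58 ± 0.51, adjusted p = 9.05e-07, cone), and Slc32a1, which loads it (-5.34 ± 0.83, adjusted p = 5.20e-06, rod). Of 11 further adhesion genes, 2 rose and 8 fell in the cone culture, with Lrrtm1 the largest fall (-3.85 ± 0.41, adjusted p = 6.66e-09). Rod libraries had 3 rises and 5 falls, led by Lrrtm3 (2.83 ± 0.62, adjusted p = 3.63e-04) and Lrrtm2 (-3.17 ± 0.55, adjusted p = 2.47e-05).

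Of 12 further scaffold and kinase genes, 5 rose and 4 fell in the cone culture and 4 and 5 in the rod culture, with the kinase Camk2a the largest rise (1.66 ± 0.43, adjusted p = 0.00159 and 1.96 ± 0.51, adjusted p = 0.002) and Dlgap3 the largest fall (-5.59 ± 0.41, adjusted p = 9.95e-12 and -4.88 ± 0.42, adjusted p = 3.33e-10). Of 13 further glutamate receptors, 5 rose and 4 fell in the cone culture and 6 and 4 in the rod culture. Grm6, the receptor of ON bipolar cells, had 0 counts in cone primed libraries and was at least 20.6-fold higher at day 35, against a floor of 3 counts over the group. Rod libraries went from 1 count to a level 36.6-fold (exact 95% interval from counting alone 6.28 to 1474) higher. The largest falls were of Grin2c in the cone culture, 38.3-fold (exact 95% interval from counting alone 10.2 to 323) lower, and of Grik2 in the rod culture (-4.35 ± 0.51, adjusted p = 6.86e-08). Of 12 inhibitory receptor genes, 3 rose and 8 fell in the cone culture and 0 and 8 in the rod culture. There the largest rise was of Glra1, 25.1-fold (exact 95% interval from counting alone 4.17 to 1022) higher in the cone culture, and the largest falls were of Glra2 (-4.41 ± 0.76, adjusted p = 1.58e-05 in the cone culture, and 85.01-fold (exact 95% interval from counting alone 14.7 to 3412) lower in the rod culture).

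Between cultures at day 35, 20 of the 102 were higher and 7 lower in cone libraries, beside 7.77% and 4.51% of all genes tested. By list, the counts higher and lower were 5 and 1 for release genes, 0 and 0 for ribbon genes, 4 and 1 for active zone genes, 4 and 1 for transmitter genes, 2 and 3 for adhesion genes, 1 and 0 for scaffolds, 2 and 1 for glutamate receptors and 2 and 0 for inhibitory receptors. The largest called difference towards cone within each list was of Sv2c (4.18 ± 1.01, adjusted p = 0.0063), Rimbp2 (2.35 ± 0.73, adjusted p = 0.0322), Tenm2 (1.77 ± 0.34, adjusted p = 8.19e-04), Camk2a (1.48 ± 0.41, adjusted p = 0.0173), Grik2 (2.08 ± 0.54, adjusted p = 0.011) and Gabra3 (2.21 ± 0.70, adjusted p = 0.0371). Among transmitter genes it was of Slc18a3, the vesicular acetylcholine transporter, which stood at 2.73, 2.404 and 1.53 CPM in cone and 0.085, 0 and 0.0646 CPM in rod libraries. Slc17a8 of the same list was also higher in cone libraries (2.36 ± 0.35, adjusted p = 3.71e-05). The largest called difference towards rod within each list that had one was of Cadps2 (-1.02 ± 0.34, adjusted p = 0.0491), Unc13b (-1.04 ± 0.26, adjusted p = 0.00922), the glycine transporter Slc6a9 (-1.18 ± 0.20, adjusted p = 2.42e-04), Cadm2 (-1.58 ± 0.47, adjusted p = 0.0253) and Grin3a (-2.47 ± 0.75, adjusted p = 0.0301).

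Rest encodes a repressor that keeps neuronal genes silent outside neurons, and Rcor1 and Rcor2 encode its CoREST cofactors. Rest stood at 75.3, 107 and 72.1 CPM in cone primed and 163, 155 and 139 CPM in cone day 35 libraries (0.84 ± 0.17, adjusted p = 1.15e-04), and at 80.7, 91.2 and 114 and 149, 162 and 162 CPM in the rod culture (0.73 ± 0.17, adjusted p = 6.64e-04). Rcor2 went from 118, 104 and 94.9 to 3.75, 4.21 and 5.08 CPM (-4.60 ± 0.32, adjusted p = 2.57e-12) and from 136, 112 and 109.7 to 2.38, 2.43 and 2.07 CPM (-5.70 ± 0.34, adjusted p = 5.23e-13). Rcor1 was not called at day 35 in either culture, with 50.7 ± 3.54 and 58.6 ± 3.81 CPM. Whether these levels bear on the synapse genes was not tested.

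The REST site, RE1, was searched on both strands in promoters from RefSeq, from 250 bases before to 50 after each start on GRCm38.p6. Only exact matches to 1 consensus of its letters were counted. Sites that differ from that consensus or lie outside the window would be missed, so a gene without a match may still have a site. Of the 36 genes 26 had a promoter there, 39 promoters in all. A match was found in 1 promoter (2.56%), beside 0.244% of all 32851 promoters in the table. The gene with a match was 1 of the 26 (3.85%), beside 0.285% of all 27025 genes in the table. It was Gria2, whose fall is described above, so its site is shown with 20 bases on each side, in capitals where it matches, at chr3:80802971-80803025, 170 to 156 bases before the start of transcription. Gria2 lies on the minus strand and the bases are printed on that strand, while the letters of RE1 read on the opposite, plus strand.
Gria2 promoter: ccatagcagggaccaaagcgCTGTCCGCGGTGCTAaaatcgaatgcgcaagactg
A match describes these letters and is not evidence of binding. On GRCm38 the 36 genes lie on 15 chromosomes, with at most 5 on a single one, chromosome 7. Snap25 lies at chr2:136713453-136782428 on the plus strand, Vamp1 at chr6:125215551-125245964 and Gria4 at chr9:4417896-4796234, all as protein-coding genes. In 6 genes (Syt4, Syn3, Syp, Nlgn1, Nlgn3 and Grin1) over 5% of exon bases are shared with other gene models, and the levels of these are uncertain to that extent, since the strand setting of the counting is not given in the sources used here. For 11 genes no other gene overlapped.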

How the data were processed

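RNA-seq counts were analysed for 33 libraries in 11 groups of 3, grouped by treatment and day per the labels. RNA was extracted and libraries were made with Takara low-input kits, per the labels' protocols. As deposited, each count table lists raw read counts of 47729 genes and 5 lines of reads not assigned to a gene, which were left out of library sizes and tests. Between 26.9% and 34.9% of the tallied reads were assigned to genes. The second table of each library, deposited by the authors, holds TPM values, used here only in an alternative fit. HISAT2, StringTie, HTSeq and genome build GRCm38 are named in the submitters' processing notes, with no version, role or strand setting. Exon lengths, overlaps and positions came from the reference annotation on GRCm38.

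The 36 genes and all other gene lists were chosen with earlier results of these data known. Of 32488 genes with any count, 18150 passed filterByExpr by group at a minimum count of 10. After TMM scaling, all 33 libraries entered a single non-robust quasi-likelihood fit in edgeR 4.0.16 (R 4.3.3, with limma 3.58.1 for the alternative on TPM), so that all groups share 1 estimate of the spread. Fold changes are log2 with standard errors, as ± values, and p-values were adjusted by Benjamini-Hochberg over all genes tested within each of 17 comparisons and the F test. Every one of the 36 genes is named with its level in at least 1 group. Fold changes with a test are given for all of them at day 35 against primed cells, and elsewhere for the 2 largest called rises and the 2 largest called falls. Other lists are given as counts with their largest called rise and fall, except for a value that is not reported here, and Rest, Rcor1 and Rcor2 by level. Further genes were named after their values were seen. No 2 libraries held identical counts. The fit was tested on simulated counts. Alternatives were RLE size factors, no filter, DESeq2 1.42.0, limma on log2(TPM + 1), only the libraries compared, a term for the replicate number, and leaving out each library. Reads were counted without molecular identifiers, so floors and intervals cover counting error only. Tables were made in Python 3.11.15 (pandas 2.3.3, scipy 1.17.1, numpy 2.4.6) and figures in matplotlib 3.10.9.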

Additional observations from a re-analysis of the deposited data

Results flagged for a closer look

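For 5 of the 36 genes the change over the days differed between the cone and rod cultures in the F test on 4 degrees of freedom (edgeR, adjusted over all genes tested). The same test called 9.22% of all genes tested. In the sentences that follow, differences are cone minus rod log2 fold changes ± SE at days 0, 5, 12, 21 and 35. Gria1, an AMPA receptor subunit, had an adjusted p of 1.03e-04 and differences of 0.18 ± 0.23, -0.013 ± 0.22, -0.81 ± 0.22, 0.89 ± 0.23 and 1.73 ± 0.23, from lower in cone libraries at day 12 to higher at day 35. For Gphn, the inhibitory scaffold gephyrin, the adjusted p was 0.00152 and the differences were 0.13 ± 0.12, -0.25 ± 0.12, -0.81 ± 0.12, -0.57 ± 0.12 and -0.77 ± 0.12. Gria4 had an adjusted p of 0.00477 with 1.00 ± 0.30, 0.38 ± 0.30, -0.77 ± 0.30, -0.86 ± 0.30 and -1.06 ± 0.30. It was also the gene that fell in the cone culture and rose in the rod culture by day 35, a difference in change of -2.06 on the log2 scale. Vamp1, synaptobrevin 1, followed at 0.00919 with 0.50 ± 0.19, 0.64 ± 0.17, -0.37 ± 0.17, 0.13 ± 0.17 and -0.42 ± 0.17. Stx1a, syntaxin 1A, passed at 0.0141 with 0.45 ± 0.16, 0.44 ± 0.16, 0.04 ± 0.16, -0.46 ± 0.16 and -0.31 ± 0.16. Every gene but Gria1 lost its call when replicate 3 of each cone and rod group was left out.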

How the results depend on the processing

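Of the 116 values given for single genes, 116 kept direction and side of the threshold with DESeq2, 114 with RLE size factors, 113 without the filter on low counts, 113 with the replicate block and 107 with only the libraries compared. The exceptions were Slc17a7 at cone day 35, called with no filter (adjusted p = 0.0466), with the block (0.016) and with only the libraries compared (0.0281), and a few calls that were lost, among them Nlgn3 at cone day 21 (0.12, 0.055 and 0.0872 in the same order), Nlgn3 between cultures at day 5 (0.0564 with RLE, 0.0768 with no filter and 0.0516 with the block), Syt4 after rod priming (0.0518 with RLE) and Gria4 and Cplx1 between cultures at day 35 (0.0887 and 0.105 with only the libraries compared). Of the alternative values, leaving out 1 library kept 580, weakened 95, brought 3 past the threshold and reversed 3 of genes that were not called.

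Limma on log2(TPM + 1) kept 22, weakened 77 and reversed 17, and it called 3, 4 and 5 genes at cone days 12, 21 and 35, 1, 1, 3 and 5 at rod days 5, 12, 21 and 35, 0 for cone day 35 against day 12, 1 for rod day 35 against day 12, 0, 1, 0, 0 and 0 between cultures at days 0, 5, 12, 21 and 35, 0 for rod primed against untreated and 0 in the F test. The cause was not tested. Its reversed values at cone day 35 were 0.28 for Stx1a, -0.082 for Vamp1, 0.019 for Syt1, 0.305 for Syn2, 6.38 for Syn3, 0.081 for Rab3a, 0.48 for Unc13a and 0.12 for Nlgn3. At rod day 35 they were 0.23 for Stx1a, 0.299 for Syn1, 4.51 for Syn3, 1.1 for Rab3a, 0.057 for Slc17a6, 0.34 for Unc13a and 0.19 for Homer1, and Vamp1 had -0.0096 at cone day 21 and -0.076 at rod day 21.

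With only the libraries compared, which leaves fewer samples for the spread, the counts of called genes were 11 at cone day 5, 9 at rod day 5, 7 for cone day 35 against day 12, 15 for rod day 35 against day 12, 21, 17 and 0 between cultures at days 0, 5 and 12, and 26 for rod primed against untreated. With no filter they were 6 and 5 between cultures at days 0 and 21 and 8 in the F test. DESeq2 called 7 and 7 between cultures at days 0 and 21, 14 for rod primed against untreated and 11 in the F test. For none of these alternatives was the share of all genes called computed. On average the same-numbered libraries deviated together only weakly, with a mean r of 0.024 within a number and -0.012 between numbers. Of 165 same-number pairs 48 were over 0.1, and in 0 of 17 comparisons did all 3 pairs pass. However, r reached 0.513 in 1 pair between cultures at day 12, and 19 of 33 libraries correlated best with their own number. Whether same-numbered libraries share an origin is not given in the labels. The replicate block moved the count to 9 between cultures at day 0 and to 14 for rod primed against untreated.

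With each library left out in turn, counts ran from 1 to 3 at cone day 5, 2 to 4 at rod day 5, 7 to 19 at rod day 12, 3 to 18 for cone day 35 against day 12, 1 to 3, 0 to 3, 1 to 7, 1 to 4 and 6 to 12 between cultures at days 0, 5, 12, 21 and 35, 1 to 6 for rod primed against untreated and 1 to 7 in the F test. At rod day 35 Vamp2 ran from -0.054 to 0.21 and Homer1 from -0.16 to 0.021. Depth limits Slc17a6, Cplx1 and Syn2, which were near the floor in rod libraries at day 35.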

Other observations

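Counts and TPM values of the same libraries parted for some synapse genes. Snap25 had 104, 695 and 364 counts in the 3 cone day 35 libraries and 39, 61 and 78 in the rod day 35 libraries, yet is listed at 0 TPM in all 6. Of the 36 genes, 9 are listed at 0 TPM in all 3 cone day 35 libraries and 10 in all 3 rod day 35 libraries, while none had 0 counts in all 3. A single gene held between 45.8% and 69.9% of the TPM of a library.

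For Syn3 the tables moved apart over time. Its TPM was 1.505, 3.08 and 0.525 in cone primed libraries and 201, 154 and 285 at day 35, while its counts were 151, 192 and 232 and 107, 157 and 127. Timp3, a metalloproteinase inhibitor gene chosen here after its values were seen, lies inside Syn3 on the opposite strand and shares 1733 exon bases with it. Timp3 stood at 1.64, 4.69 and 0.943 CPM in cone primed and 454, 391 and 571 CPM in cone day 35 libraries, and at 4.88, 2.12 and 8.62 and 234, 225 and 208 CPM in the rod culture. The part of Timp3 reads in the Syn3 values was not tested.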
